A study of Caenorhabditis elegans with 9 samples.

Results

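Larvae with the nas-38 allele ok3407 were compared with larvae with the nas-38 allele tm2655 by RNA sequencing of whole Caenorhabditis elegans in L4 lethargus, the sleep-like quiet phase before the last molt. All 46699 genes of the deposited count table were taken, and 16055 of them had enough reads to be tested. The ok3407 group was strain HBR1010 and the tm2655 group strain HBR1114, and wild type N2 larvae are given beside them. In the deposited tables the column headers of the authors' test call ok3407 a gain of function, and sheet names call tm2655 a loss of function. Each group had 3 libraries, stated to be biological replicates, from bleach-synchronised animals grown at 20 °C on E. coli OP50 and picked by hand while asleep. Each allele was sampled as 1 strain, so other differences between the strains cannot be told apart from the allele. In whole animals, fewer cells of a type and less RNA per cell cannot be told apart either.

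NAS-38 is a secreted zinc protease of the astacin family. Astacins of the worm cut extracellular proteins, and several act on the cuticle, the collagen coat that the epidermis builds anew and sheds at each molt. The epidermis is also an immune tissue: fungal infection, wounding and damage to cuticle furrows switch on secreted antimicrobial peptides of the nlp and cnc families there. Molting and lethargus run on the same developmental clock, so genes for collagens, proteases and molting factors rise and decline in waves through each larval stage.

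Reads assigned to genes numbered 26.1 M to 40.5 M per library in ok3407, 28.1 M to 31.5 M in tm2655 and 13.8 M to 32.9 M in wild type. Defining transcripts of muscle (unc-54), pharynx (myo-2), intestine (elt-2, ges-1), neurons (rab-3), germ line (pgl-1) and epidermis (dlg-1) were present in every library at 10.8 CPM or more (reads per 1 M gene reads, scaled with TMM factors). The other epidermal marker chosen, the collagen dpy-7, was lower and uneven, from 0.093 CPM in wild type replicate 3 to 18.3 CPM in ok3407 replicate 3. On the leading principal component (38.76% of the variance) lay the ok3407 libraries at 46.98 to 67.14, tm2655 at 1.334, -26.75 and -41.05 and wild type at -51.34 to -29.29. tm2655 replicate 1 was the library nearest to ok3407 on that axis, and it stood apart on the third component (11.93% of the variance) at -66.1, with the other 8 libraries between -5.318 and 20.06. Counts of calls are therefore given with and without it. Intron reads made up 10.6% ± 0.77 of gene reads in ok3407 and 9.01% ± 0.272 in tm2655 (SD, n = 3 each), and uniquely mapped reads 95.6% ± 0.503 and 94.1% ± 0.353. Neither share overlapped between the alleles, with p = 0.10 for each in the exact two-sided permutation test, the smallest p that 3 against 3 allows. When exon reads alone were counted, 348 genes were higher and 259 lower.

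The mutated gene itself separated the alleles. nas-38 (chromosome X, 558190 to 563629, plus strand) stood at 227, 375 and 337 CPM in ok3407 libraries, against 10, 14.4 and 7.56 CPM in tm2655 libraries, with 134, 57.9 and 65.1 CPM in wild type. The lowest ok3407 library was therefore above every wild type library, and the highest tm2655 library below every one of them. The transcript rose 29.3-fold in ok3407 relative to tm2655 (log2 change 4.87 ± 0.42, adjusted p = 0.00113), with ± standing for an approximate standard error wherever it follows a change. The change stayed between 4.68 and 5.15, with adjusted p of 0.0089 or less, in the fits that left out each library of the 2 alleles in turn. Against wild type the change was 1.87 ± 0.37 in ok3407 (adjusted p = 0.0265) and -3.0 ± 0.39 in tm2655 (adjusted p = 0.316). The authors' deposited table lists the tm2655 difference with a fold of -8.64 and a corrected p of 5.92e-12.

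Reads over nas-38 were spliced in both alleles, and the share that fell in introns differed. Of the gene reads of nas-38, 403 of 6387, 992 of 12756 and 1028 of 14882 were intronic in ok3407, against 33 of 287, 52 of 436 and 26 of 221 in tm2655. These are shares of 6.31%, 7.78% and 6.91% in ok3407, and of 11.5%, 11.9% and 11.8% in tm2655, with 5.66%, 6.39% and 5.14% in wild type. Exact 95% binomial intervals, which cover counting error only, ran from 5.73% to 8.26% over the ok3407 libraries and from 7.83% to 16.8% over the tm2655 libraries. The means were 7.00% ± 0.738 in ok3407 and 11.7% ± 0.216 in tm2655 (SD, n = 3 each), a difference of -4.73 percentage points. The 3 shares of each allele did not overlap (exact two-sided permutation test, p = 0.10, the smallest possible here). Reads across exon junctions numbered 4536, 9035 and 10512 in ok3407, against 193, 281 and 150 in tm2655. As a share of exon reads they were 75.8%, 76.8% and 75.9% in ok3407, against 76%, 73.2% and 76.9% in tm2655, and here the alleles overlapped. The gene counts do not show which exons or introns the reads came from.

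**Figure D1:**
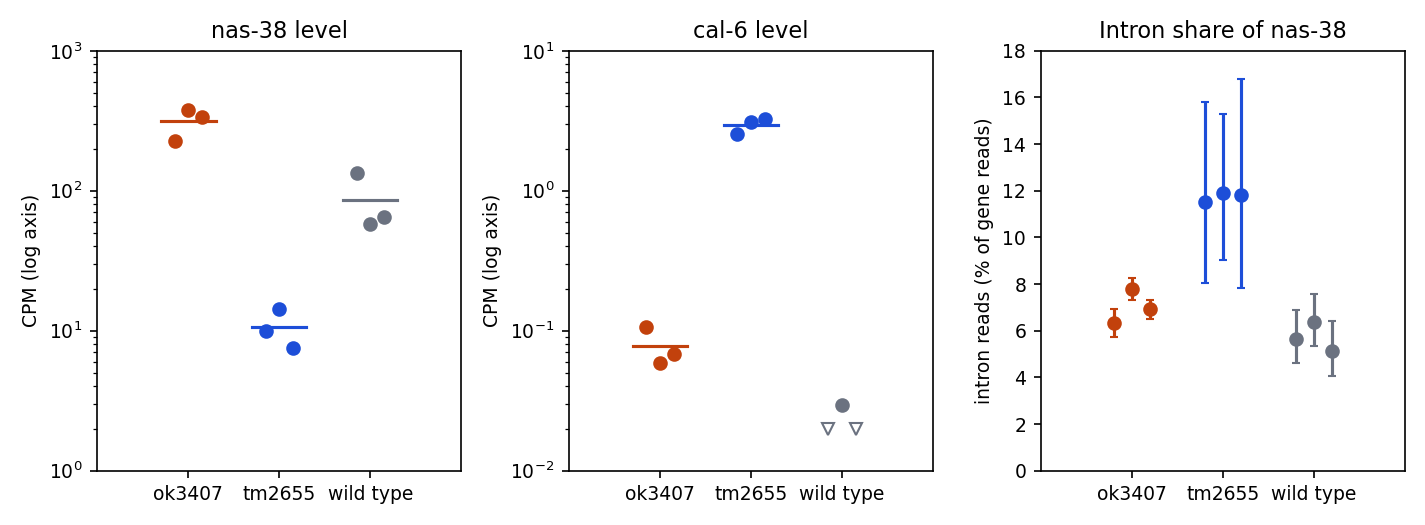
Left and middle, level of nas-38 and cal-6 in CPM on log axes for the 3 libraries of ok3407, tm2655 and wild type (points; lines are group means, open triangles at the bottom mark 0 reads, and the wild type mean of cal-6 is below the plotted floor). Right, intron reads of nas-38 as a percentage of its gene reads, with exact 95% binomial intervals; the tm2655 libraries sit at 11.5% to 11.9% and the ok3407 libraries at 6.31% to 7.78%.

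Across all genes, 374 rose and 271 fell in ok3407 relative to tm2655 at an adjusted p under 0.05 (edgeR quasi-likelihood test with Benjamini-Hochberg adjustment). The 645 called genes were 4.02% of those tested, 2.33% higher and 1.69% lower. The rises were larger than the falls: the median log2 change was 1.79 among called rises and -1.02 among called falls, and 170 rises but 38 falls exceeded 4-fold. In all 645 the 3 ok3407 libraries lay outside the range of the 3 tm2655 libraries, as did 23.4% of all genes tested. The median change of all genes was 0.01. Scaling to the total library size moved it to 0.19 and the counts to 464 higher and 139 lower, which is 76.9% of calls higher in place of 58%. Without tm2655 replicate 1 the counts were 339 higher and 284 lower, and 457 of the 645 genes were called again. Without ok3407 replicate 2 they were 201 and 87, without tm2655 replicate 2 189 and 91, and without tm2655 replicate 3 150 and 72. Leaving out ok3407 replicate 1 gave 335 and 141, and leaving out ok3407 replicate 3 gave 359 and 258. Called in the full fit and in each of these 6 fits were 179 genes, and no called gene changed direction in any of them.

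**Figure D2:**
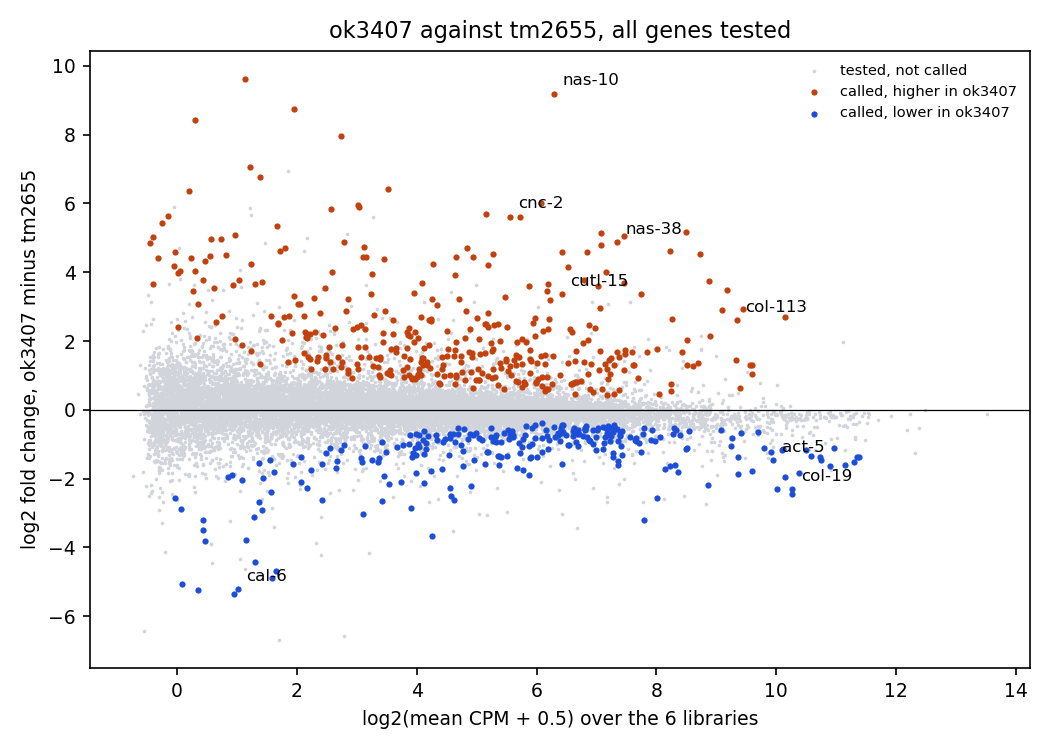
Log2 fold change of ok3407 minus tm2655 against the log2 mean CPM (plus 0.5) of the 6 libraries for the 16055 genes tested; orange points are the 374 genes called higher in ok3407, blue points the 271 called lower and grey points those not called. Rises reach 9.63 and falls -5.37 among called genes, and the falls at high CPM include col-19 and act-5.

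Antimicrobial peptide genes of the epidermis had the largest median shifts of the 37 gene lists examined. Of the 11 nlp genes of this kind, 10 were tested: 6 rose, 0 fell and 4 did not pass, with a median log2 change of 2.20 against 0.01 over all genes. Of the 11 caenacin (cnc) genes, 10 were tested: 6 rose, 0 fell and 4 did not pass, with a median of 3.64. Without tm2655 replicate 1 the counts were again 6 and 6, with medians of 2.47 and 6.10. The nlp rises numbered 4 without ok3407 replicate 1 or 2 and 3 without tm2655 replicate 2 or 3, and the cnc rises 5 without ok3407 replicate 1, 7 without ok3407 replicate 3, and 4 without ok3407 replicate 2 or tm2655 replicate 2 or 3. Exon reads alone gave 4 nlp and 5 cnc rises. The 2 lists were written with earlier results of these data known, so their direction is no independent evidence.

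Within the nlp-29 cluster on chromosome V, nlp-34 (3978903 to 3979128) had 203, 170 and 121 CPM in ok3407, against 7.66, 6.52 and 6.19 CPM in tm2655. It was thus far apart between the alleles and tight within tm2655, and it rose 24.3-fold (4.60 ± 0.44, adjusted p = 0.00192). Its neighbour nlp-31 had 153, 156 and 85.8 CPM in ok3407, against 12.6, 12.4 and 10.8 CPM in tm2655 (3.46 ± 0.38, adjusted p = 0.00285). nlp-30 rose by 3.76 ± 0.52 (adjusted p = 0.00791) and nlp-27 by 1.94 ± 0.42 (0.0425). nlp-29 itself, the best known reporter of fungal infection and wounding in the skin, had 487, 312 and 211 CPM in ok3407, against 79.2, 23.4 and 12.3 CPM in tm2655. The ranges did not overlap, but tm2655 replicate 1 was several times above its fellows, and nlp-29 did not pass the threshold (3.14 ± 0.74, adjusted p = 0.0573). Without that library the change was 4.24 with adjusted p = 0.0214. It also passed with a replicate block (0.0148), DESeq2 (0.00162), limma on log2 RPKM (0.0269) and a filter of 5 CPM (0.047), and over all settings its adjusted p ran from 0.00162 to 0.175. Outside the cluster nlp-25 rose by 2.45 ± 0.40 (adjusted p = 0.0127) and nlp-33 by 1.03 ± 0.21 (0.0256).

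Among caenacins, cnc-2 (chromosome V, 1449791 to 1450174) had 123, 102 and 49.3 CPM in ok3407, against 2.87, 1.55 and 1.16 CPM in tm2655 and 4.11, 0.978 and 1.63 CPM in wild type. All ok3407 libraries were more than an order of magnitude above all others, and the gene rose 49.1-fold (5.62 ± 0.63, adjusted p = 0.00402). cnc-4, next to it, had 136, 160 and 107 CPM in ok3407, against 19.4, 8.14 and 4.34 CPM in tm2655 (3.66 ± 0.65, adjusted p = 0.0209). cnc-9 had 1393 reads in ok3407 and 4 in tm2655 (7.95 ± 1.05, adjusted p = 0.00559), and for cnc-10 the rise was 2.88 ± 0.38 (0.00503). cnc-6 had 163 reads in ok3407 and 0 in tm2655, which puts it at least 45-fold higher when tm2655 is given a floor of 3 reads in all (adjusted p = 0.0122). cnc-1 had 393 reads in ok3407 and 3 in tm2655, a ratio of 109 with an exact 95% counting interval of 36.9 to 529 (adjusted p = 0.0306). cnc-7 and cnc-11 were 3.62 ± 1.05 and 3.57 ± 1.39 apart and did not pass (adjusted p = 0.106 and 0.224); both are named after their values were seen.

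Of the fungus-induced proteins (fip and fipr), 22 of 36 were tested: 2 rose, 0 fell and 20 did not pass, with a median of -0.19; without tm2655 replicate 1, 3 rose. fip-6 (chromosome I, 8945665 to 8946179) had 138, 202 and 56.3 CPM in ok3407, against 2.27, 2.47 and 1.33 CPM in tm2655, a 65-fold rise (6.02 ± 0.63, adjusted p = 0.00293). fip-5 (chromosome X) had 162, 89.4 and 72 CPM in ok3407, against 8.15, 6.00 and 12.6 CPM in tm2655 (3.59 ± 0.37, adjusted p = 0.00213). The family as a whole therefore did not move together. Of the 14 calls among nlp, cnc, fip and fipr genes, 9 were made again in all 6 fits that left out a library (nlp-30, nlp-31, nlp-34, cnc-2, cnc-6, cnc-9, cnc-10, fip-5 and fip-6). The others were lost without ok3407 replicate 1 (3 genes, adjusted p 0.0501 to 0.0924), ok3407 replicate 2 (4, 0.0527 to 0.111), tm2655 replicate 1 (2, 0.050 to 0.076), tm2655 replicate 2 (5, 0.0643 to 0.139) or tm2655 replicate 3 (5, 0.0688 to 0.166).

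**Figure D3:**
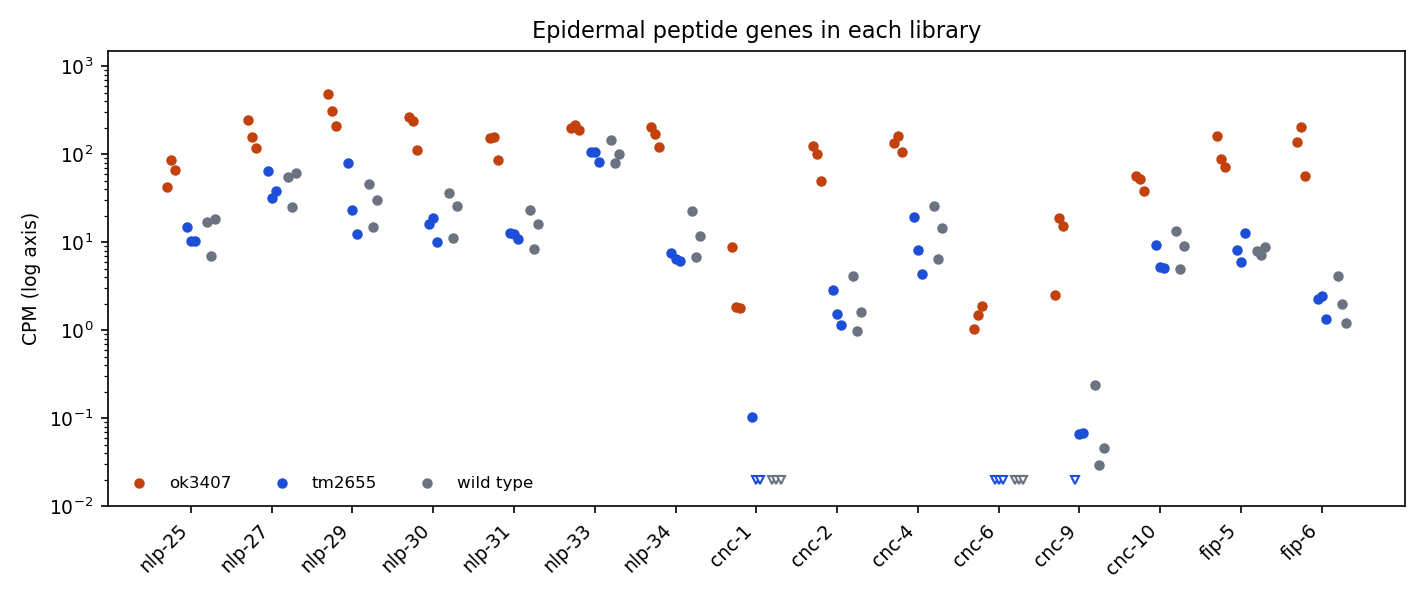
Level of 15 epidermal peptide genes in CPM on a log axis, with 1 point per library for ok3407 (orange), tm2655 (blue) and wild type (grey); open triangles at the bottom mark libraries with 0 reads. Shown are the 14 called genes of the nlp, cnc and fip lists and nlp-29, and the other genes of these lists are left out. Every called gene had groups without overlap, so the 3 ok3407 points lie above the 3 tm2655 points by this choice. In nlp-29, which was not called, they also lie above its high tm2655 replicate 1 at 79.2 CPM.

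Immune genes of other tissues did not move as a block. Calls in these lists are to be read beside the 4.02% called over all genes tested. Among C-type lectins the share called was 3.57%. Of 13 tested lysozymes, 1 rose and 1 fell: ilys-3, an invertebrate-type lysozyme, had 103, 22.3 and 37.4 CPM in ok3407, against 4.09, 0.461 and 1.68 CPM in tm2655 (4.71 ± 0.90, adjusted p = 0.0277). lys-4, a protist-type lysozyme, had 138, 120 and 136 CPM in ok3407, against 262, 313 and 720 CPM in tm2655 (-1.72 ± 0.38, adjusted p = 0.0413). The list's median was -0.02, or 0.15 with total library size. Of 20 tested caenopores and antibacterial factors, spp-10, a saposin-like protein, alone rose (0.45 ± 0.10, adjusted p = 0.0351; list median -0.16, or 0.01 with total library size). Of 140 tested C-type lectins, 1 rose and 4 fell (median -0.26): clec-232 had 78 reads in ok3407 and 1 in tm2655, a ratio of 64.6 (interval 11.3 to 2590, adjusted p = 0.0177), and the falls were clec-227 (-2.63 ± 0.46, 0.0146), clec-56 (-1.35 ± 0.24, 0.0158), clec-210 (-2.64 ± 0.55, 0.0343) and clec-66 (-1.73 ± 0.38, 0.0407). Of 12 intestinal effectors of the PMK-1 p38 kinase, 0 rose and 2 fell, F55G11.8 (-0.93 ± 0.20, adjusted p = 0.0344) and C17H12.8 (-1.90 ± 0.42, 0.0461), with a median of -0.69. Of 7 tested genes of the intracellular pathogen response, 2 rose, the neighbours B0284.2 (4.89 ± 0.93, adjusted p = 0.0246) and B0284.1 (4.44 ± 0.98, 0.0457), with a median of 0.29.

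Among the signalling genes that control epidermal peptides, 27 were tested, 1 rose and 1 fell, with a median of 0.13. Over all genes tested, 4.02% were called. tir-1, the TIR-domain adaptor upstream of the p38 cascade, had 73.1, 62.3 and 54.3 CPM in ok3407, against 27.9, 37.2 and 28.6 CPM in tm2655, a 2.02-fold rise (1.02 ± 0.16, adjusted p = 0.00936). elt-3, a GATA factor of the epidermis, had 13.4, 12.3 and 18.1 CPM in ok3407, against 23, 24.8 and 36 CPM in tm2655 (-0.94 ± 0.22, adjusted p = 0.0452). sta-2, the STAT-like factor needed for nlp-29 induction, had 30.5, 20.2 and 16.2 CPM in ok3407, against 22.3, 7.71 and 9.54 CPM in tm2655; the ranges overlapped through tm2655 replicate 1 and the gene did not pass (0.76 ± 0.39, adjusted p = 0.354; without that library 1.37, 0.0373). The counts of rises and falls without tm2655 replicate 1 were 1 and 2 for lysozymes, 0 and 0 for caenopores, 2 and 5 for lectins, 0 and 0 for PMK-1 effectors, 3 and 0 for the intracellular pathogen response and 2 and 1 for epidermal signalling. Of 14 genes of the DBL-1 TGF-beta pathway, which regulates cnc-2, 0 were called (median 0.21). By unadjusted p under 0.05 they were 6, DESeq2 called 1 higher and 1 lower, and 1 rose without tm2655 replicate 1.

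Of the 14 calls in these immune and signalling lists outside the epidermal peptides, 0 were made again in all 6 fits that left out a library. They were lost without ok3407 replicate 1 (8 genes, adjusted p 0.0532 to 0.125), ok3407 replicate 2 (8, 0.0618 to 0.148), ok3407 replicate 3 (6, 0.0585 to 0.0954), tm2655 replicate 1 (5, 0.0502 to 0.10), tm2655 replicate 2 (12, 0.0578 to 0.13) or tm2655 replicate 3 (12, 0.051 to 0.176).

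Other astacins and a few molting genes rose in ok3407. Calls in the astacin, molting, cuticlin and assembly enzyme lists are to be read beside the 4.02% called over all genes tested. Of 31 tested astacins other than nas-38, 3 rose and 0 fell, with a median of 0.21 (-0.06 without tm2655 replicate 1, where 3 rose and 1 fell). nas-10 (chromosome X, 10960982 to 10964725) had 247, 124 and 95 CPM in ok3407, against 0.525, 0.165 and 0.103 CPM in tm2655, so that a transcript at the edge of detection in tm2655 stood above 90 CPM in every ok3407 library (9.19 ± 1.19, adjusted p = 0.00661). nas-11 (chromosome X, 6713578 to 6716320) had 150, 177 and 150 CPM in ok3407, against 42.1, 26.6 and 30 CPM in tm2655, a 4.83-fold rise (2.27 ± 0.19, adjusted p = 0.000595). nas-33 varied more in ok3407, at 8.02, 83.6 and 46.4 CPM, against 2.73, 2.24 and 4.07 CPM in tm2655 (3.93 ± 0.75, adjusted p = 0.0274). nas-37, the astacin needed to shed the old cuticle, had 16, 19.4 and 24.4 CPM in ok3407, against 17.9, 16.1 and 4.65 CPM in tm2655, and did not pass (0.63 ± 0.49, adjusted p = 0.562).

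Of 37 molting effectors, 2 rose and 0 fell, near the 4.02% called over all genes tested. Their median was 0.61 and ran from 0.36 to 1.28 in the fits without 1 library. The counts stayed at 2 and 0 without tm2655 replicate 1, and DESeq2 called 9 higher and 0 lower. mlt-3, an ankyrin-repeat partner of the NEKL kinases that take up apical membrane at the molt, had 88.7, 50.1 and 40 CPM in ok3407, against 15.5, 8.76 and 7.42 CPM in tm2655 (2.50 ± 0.37, adjusted p = 0.00791). nekl-2, one of those kinases, had 13.2, 14.1 and 14 CPM in ok3407, against 6.12, 6.06 and 5.16 CPM in tm2655 (1.25 ± 0.21, adjusted p = 0.0122). Of 17 molting timer factors, 0 rose and 1 fell, elt-3, given above, with or without tm2655 replicate 1. nhr-23, the receptor that drives molting gene waves, had 49, 40.1 and 46.6 CPM in ok3407, against 35.4, 41.4 and 49.4 CPM in tm2655 (0.10 ± 0.16, adjusted p = 0.789), and lin-42, the worm's period homolog, had 19.4, 35.7 and 44.5 CPM in ok3407, against 20.9, 49.3 and 30.8 CPM in tm2655 (-0.02 ± 0.41, 0.988). Both overlapped between the alleles. Of 17 heterochronic genes, 0 were called, with 1 at an unadjusted p under 0.05 and 0 called by DESeq2 (median -0.01, or 0.17 with total library size).

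Of 36 tested cuticlins, 2 rose and 1 fell (median 0.28). The cuticlin-like gene cutl-15 (chromosome II, 8942888 to 8947584) had 174, 157 and 136 CPM in ok3407, against 12, 19.4 and 14.1 CPM in tm2655, a 10.2-fold rise (3.36 ± 0.25, adjusted p = 0.000391). cutl-23 rose by 1.42 ± 0.26 (adjusted p = 0.0178) and cutl-26 fell by 0.70 ± 0.15 on the log2 scale (0.0363). Among cuticlins 1 rose and 1 fell without tm2655 replicate 1. Of 18 cuticle assembly enzymes, bli-3, the dual oxidase that cross-links the cuticle, alone rose, with 79.7, 97 and 79.2 CPM in ok3407, against 52.1, 57.6 and 58.4 CPM in tm2655 (0.61 ± 0.12, adjusted p = 0.0233; list median -0.03, or 0.15 with total library size); without tm2655 replicate 1 it was lost and 0 enzymes were called. Of the 10 calls in these astacin, molting and cuticlin lists, mlt-3, nas-10, nas-11 and cutl-15 were made again in all 6 fits that left out a library. The others were lost without ok3407 replicate 1 (2 genes, adjusted p 0.0978 to 0.119), ok3407 replicate 2 (5, 0.0569 to 0.146), ok3407 replicate 3 (2, 0.0541 to 0.0733), tm2655 replicate 1 (3, 0.0516 to 0.0777), tm2655 replicate 2 (5, 0.0762 to 0.119) or tm2655 replicate 3 (5, 0.0636 to 0.164).

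Cuticle collagens split, with more falls than rises. Among the 150 collagens tested, 19 fell, 5 rose and 126 were not called, with a median of -0.30 (-0.12 with total library size). The adult cuticle collagen col-19 (chromosome X, 421724 to 422646) had 335, 380 and 531 CPM in ok3407, against 1980, 1630 and 2550 CPM in tm2655, and it was 4.95-fold lower in ok3407 (-2.31 ± 0.28, adjusted p = 0.00345). col-20 had 244, 264 and 635 CPM in ok3407, against 2060, 1710 and 2450 CPM in tm2655 (-2.44 ± 0.39, adjusted p = 0.012). col-179, with 68.8, 55.9 and 99 CPM in ok3407 and 354, 399 and 563 CPM in tm2655, fell by 2.55 ± 0.28 on the log2 scale (adjusted p = 0.00226). dpy-17, a collagen that shapes the body, had 2.02, 0.911 and 1.18 CPM in ok3407, against 7.38, 4.94 and 7.42 CPM in tm2655 (-2.27 ± 0.33, adjusted p = 0.00682). The remaining falls lay between -1.17 (col-10) and -3.20 (col-126). col-124 (-2.31 ± 0.25, adjusted p = 0.00213), col-126, col-39, col-130, col-13, col-62 and col-10 drew at most 36.9% of their reads from unique positions, so reads of near-identical collagens may be shared among them.

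The collagens that rose were col-113, col-182, col-183, col-109 and col-40. col-113 (chromosome IV, 7150694 to 7152490) had 1070, 1220 and 1050 CPM in ok3407, against 146, 216 and 182 CPM in tm2655, a 6.12-fold rise (2.61 ± 0.25, adjusted p = 0.00111). col-182 had 111, 160 and 109 CPM in ok3407, against 11.2, 31.2 and 18.5 CPM in tm2655 (2.64 ± 0.44, adjusted p = 0.0163). col-183 rose by 4.71 ± 0.85 (adjusted p = 0.0179), col-40 by 3.71 ± 0.85 (0.0452) and col-109 by 1.68 ± 0.37 (0.0428). Of the 24 collagen calls, 8 were made again in all 6 fits that left out a library: col-113, col-19, col-20, col-39, col-124, col-140, col-179 and dpy-17. Without tm2655 replicate 1 there were 2 rises and 16 falls, and 7 of the 24 calls were lost (adjusted p 0.0505 to 0.114). The number of falls was 39 without ok3407 replicate 3, 15 without ok3407 replicate 1, 10 without ok3407 replicate 2, 12 without tm2655 replicate 2 and 7 without tm2655 replicate 3. DESeq2 called 43 collagens lower and 7 higher.

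The 6 furrow collagens, whose loss sets off the epidermal peptides, varied most within ok3407. dpy-7 had 0.639, 2.47 and 18.3 CPM in ok3407, against 2.45, 3.76 and 0.342 CPM in tm2655, and 1.98, 0.415 and 0.093 CPM in wild type. dpy-10 likewise had 0.922, 1.21 and 22.5 CPM in ok3407, against 3.64, 2.44 and 1.57 CPM in tm2655. In both, ok3407 replicate 3 was the highest of all libraries while ok3407 replicate 1 was below every tm2655 library (dpy-10) or below 2 of them (dpy-7). None of the 6 was called, with 0 at an unadjusted p under 0.05 and 0 called by DESeq2. Their median change of 1.71 rested on ok3407 replicate 3: without it the change was -0.48 for dpy-7, -0.40 for dpy-2, -0.13 for dpy-3, -0.61 for dpy-8, -0.48 for dpy-9 and -1.25 for dpy-10. These genes peak in a narrow window of each larval stage, and their part in the other results was not tested.

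**Figure D4:**
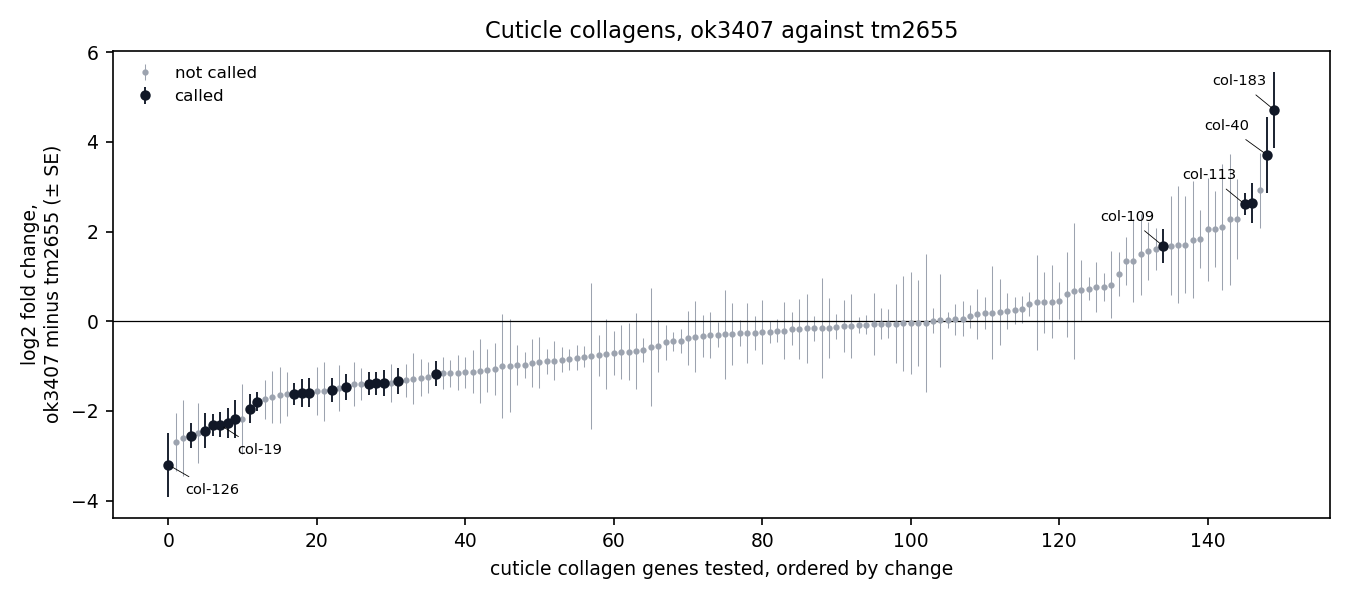
Log2 fold change (ok3407 minus tm2655, with the approximate standard error) of the 150 tested cuticle collagens, ordered by change; black points are the 5 called higher and 19 called lower. The called collagens sit at both ends, from -3.20 (col-126) to 4.71 (col-183).

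Some genes of epidermal junctions, attachments and cell fusion rose. Calls in this list and in the hedgehog-related and patched-related lists are to be read beside the 4.02% called over all genes tested. Of 21 tested genes of this kind, 6 rose, 0 fell and 15 did not pass, with a median of 0.37; without tm2655 replicate 1, 4 rose. dlg-1, the Discs large scaffold of apical junctions, had 129, 142 and 109 CPM in ok3407, against 76.3, 73.1 and 66.2 CPM in tm2655 (0.82 ± 0.15, adjusted p = 0.0159). The cadherin hmr-1 rose by 0.62 ± 0.12 (adjusted p = 0.0186), and the intermediate filament genes ifb-1 and ifa-1 by 0.64 ± 0.14 (0.0363) and 0.55 ± 0.13 (0.0476). Both filament genes were lost in all 6 fits that left out a library. The cell fusion genes changed most: eff-1 had 18, 22.6 and 15.6 CPM in ok3407, against 6.43, 5.50 and 4.24 CPM in tm2655 (1.79 ± 0.23, adjusted p = 0.00393), and aff-1 rose by 2.02 ± 0.42 (0.0284).

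Of 46 tested hedgehog-related genes, 3 rose and 0 fell (median 0.13): the ground-like genes grl-4 (1.26 ± 0.23, adjusted p = 0.0183), grl-31 (3.77 ± 0.73, 0.0213) and grl-14 (2.72 ± 0.55, 0.0258). Without tm2655 replicate 1 the counts were 0 and 1, and the median ran from 0.01 to 0.67 in the fits without 1 library. Of 25 tested patched-related genes, 2 rose and 0 fell (median 0.38, with 3 rises without tm2655 replicate 1 and medians of 0.26 to 0.86 without 1 library): ptr-1, with 119, 166 and 118 CPM in ok3407, against 15.4, 21.3 and 7.45 CPM in tm2655 (3.19 ± 0.45, adjusted p = 0.00874), and ptr-8 (1.33 ± 0.24, 0.0184). Of the 11 calls in the junction, hedgehog-related and patched-related lists, eff-1 and ptr-1 were made again in all 6 fits that left out a library. The others were lost without ok3407 replicate 1 (2 genes, adjusted p 0.102 to 0.137), ok3407 replicate 2 (8, 0.0539 to 0.105), ok3407 replicate 3 (4, 0.0502 to 0.0844), tm2655 replicate 1 (6, 0.0538 to 0.101), tm2655 replicate 2 (9, 0.0523 to 0.146) or tm2655 replicate 3 (9, 0.0706 to 0.136).

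Lists of muscle, intestine and mitochondria lay below the median of all genes in ok3407. Calls in these lists and in the ribosomal and heat shock lists are to be read beside the 4.02% called over all genes tested. Of 31 body wall muscle genes, 0 rose and 1 fell, tnt-3, a troponin T, with 147, 136 and 154 CPM in ok3407, against 245, 234 and 295 CPM in tm2655 (-0.82 ± 0.14, adjusted p = 0.0134). The muscle median was -0.45, and 26 of the 31 had a negative change. Of them 4 fell without tm2655 replicate 1, and DESeq2 called 11 lower. The major myosin gene unc-54 had 4300, 4100 and 4640 CPM in ok3407, against 5610, 6460 and 6880 CPM in tm2655, without overlap, and did not pass (-0.54 ± 0.14, adjusted p = 0.0701). Of 13 pharynx genes, 0 were called, with 1 at an unadjusted p under 0.05 and 1 called higher by DESeq2 (median -0.08, or 0.13 with total library size).

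Of 24 intestinal genes, 0 rose and 5 fell, with a median of -0.68. The number of falls was 2 without tm2655 replicate 1 or ok3407 replicate 1, 4 without ok3407 replicate 3 and 1 without any of the 3 other libraries, and DESeq2 called 10. act-5, the actin of the intestinal brush border, had 581, 515 and 478 CPM in ok3407, against 1180, 1400 and 1780 CPM in tm2655, and it was 2.77-fold lower in ok3407 (-1.47 ± 0.24, adjusted p = 0.0121). The other falls were acdh-1, an acyl-CoA dehydrogenase (-1.10 ± 0.21, adjusted p = 0.021), ifo-1 and ifd-2 of the intestinal filament network (-0.78 ± 0.18, 0.0405, and -0.88 ± 0.21, 0.0452), and spl-1, sphingosine phosphate lyase (-0.72 ± 0.17, 0.048). Of the 24 genes, 22 had a negative change and 2 a positive one. elt-2, the GATA factor that defines the intestine, had 20.6, 21.9 and 33.7 CPM in ok3407, against 16.1, 34.8 and 30.5 CPM in tm2655, with overlap. The other intestinal marker chosen, ges-1, had 26.2, 41.3 and 36.8 CPM in ok3407, against 51, 52 and 81.1 CPM in tm2655. Its groups did not overlap, as in 23.4% of all genes tested. The 6 vitellogenin genes had a median of -1.35 with 0 called, 2 at an unadjusted p under 0.05 and 2 called lower by DESeq2. vit-2 had 6760, 2150 and 2240 CPM in ok3407, against 5050, 5260 and 6400 CPM in tm2655 (-0.58 ± 0.45, adjusted p = 0.559); without ok3407 replicate 1, its highest library, the change was -1.34 with adjusted p = 0.0385.

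Of 28 nuclear genes of the respiratory chain and ATP synthase, 0 rose and 10 fell, all 28 had a negative change, and the median was -0.49 (-0.32 with total library size, which called 3). The falls were small and tight, as in asg-2, an ATP synthase subunit, with 90.3, 87.3 and 98.3 CPM in ok3407, against 139, 173 and 169 CPM in tm2655 (-0.80 ± 0.13, adjusted p = 0.011). sdha-1 of complex II fell by 0.76 ± 0.15 on the log2 scale (adjusted p = 0.0256) and hpo-18, an ATP synthase subunit, by 0.81 ± 0.17 (0.03). The 7 others were nuo-2, nuo-3, nuo-5, nuo-6, lpd-5, asb-2 and ucr-2.1, at -0.46 to -0.70. DESeq2 called 24 of the 28 lower, and the fits without 1 library called 5 (ok3407 replicate 3 or tm2655 replicate 1), 1 (ok3407 replicate 1, ok3407 replicate 2 or tm2655 replicate 2) or 0 (tm2655 replicate 3). Of 79 ribosomal protein genes, 0 rose and 2 fell, the short paralogs rpl-41.2 (-1.60 ± 0.36, adjusted p = 0.047) and rpl-41.1 (-2.05 ± 0.46, 0.0383), with a median of -0.20.

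Of 25 heat shock and unfolded protein genes, the small heat shock gene hsp-43 alone rose (1.69 ± 0.35, adjusted p = 0.0328; list median 0.11), and the mitochondrial chaperone hsp-60 had 364, 297 and 317 CPM in ok3407, against 392, 442 and 458 CPM in tm2655 (-0.40 ± 0.13, 0.12). When tm2655 replicate 1 was left out, 0 ribosomal and 0 heat shock genes were called. Of the 19 calls in the muscle, intestine, mitochondrial, ribosomal and heat shock lists, act-5 alone was made again in all 6 fits that left out a library. The others were lost without ok3407 replicate 1 (15 genes, adjusted p 0.0513 to 0.122), ok3407 replicate 2 (17, 0.0526 to 0.159), ok3407 replicate 3 (9, 0.0541 to 0.10), tm2655 replicate 1 (11, 0.0505 to 0.101), tm2655 replicate 2 (16, 0.0715 to 0.155) or tm2655 replicate 3 (17, 0.0516 to 0.175). The cell makeup of the animals was not measured, and its part in these lists was not tested.

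The sleep, neuropeptide and neuron identity lists held 5 calls, with nlp-8 counted both as a sleep gene and as a neuropeptide. Over all genes tested, 4.02% were called. Of 32 tested sleep genes, 1 rose and 0 fell, with a median of 0.17. nlp-8 (chromosome I, 7800764 to 7801808), a peptide of the ALA neuron that acts in stress-induced sleep, had 20.5, 19.3 and 17.5 CPM in ok3407, against 9.41, 9.85 and 10.9 CPM in tm2655, a 1.90-fold rise with tight groups (0.92 ± 0.15, adjusted p = 0.0109). flp-11, the main sleep peptide of the RIS neuron, had 10.3, 10.5 and 12.6 CPM in ok3407, against 8.64, 10 and 9.68 CPM in tm2655 (0.24 ± 0.17, adjusted p = 0.525). npr-12, the receptor through which NLP-29 acts on RIS, had 3.55, 3.53 and 3.75 CPM in ok3407, against 2.41, 2.47 and 2.46 CPM in tm2655, without overlap but on 386 reads in ok3407 and 216 in tm2655, and did not pass (0.56 ± 0.24, adjusted p = 0.257).

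Of 90 tested neuropeptide genes outside the epidermal group, 4 rose and 1 fell (median -0.02, or 0.17 with total library size). Besides nlp-8 the rises were the insulin-like genes ins-20, with 11.6, 20.2 and 13.7 CPM in ok3407, against 0.455, 0.132 and 0.171 CPM in tm2655 (5.90 ± 0.66, adjusted p = 0.00264), ins-11 (2.70 ± 0.43, 0.00936) and ins-4 (2.08 ± 0.36, 0.0147). The insulin-like gene ins-33 fell, with 0.355, 0.706 and 0.611 CPM in ok3407, against 3.04, 2.64 and 5.13 CPM in tm2655 (-2.67 ± 0.38, adjusted p = 0.00587). All 5 calls were made again in the fits that left out a library, except ins-4, lost without ok3407 replicate 2 (adjusted p 0.0527), tm2655 replicate 2 (0.0681) or tm2655 replicate 3 (0.0597). Of 27 neuron identity genes, 0 were called, with 6 at an unadjusted p under 0.05 and 1 called each way by DESeq2 (median -0.14, or 0.03 with total library size); 1 fell without tm2655 replicate 1. Of 41 germ line genes and 70 tested sperm genes, 0 were called, with 1 and 2 at an unadjusted p under 0.05 and 0 called by DESeq2. The germ line median was -0.09, or 0.08 with total library size, and the sperm median 0.01.

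**Figure D5:**
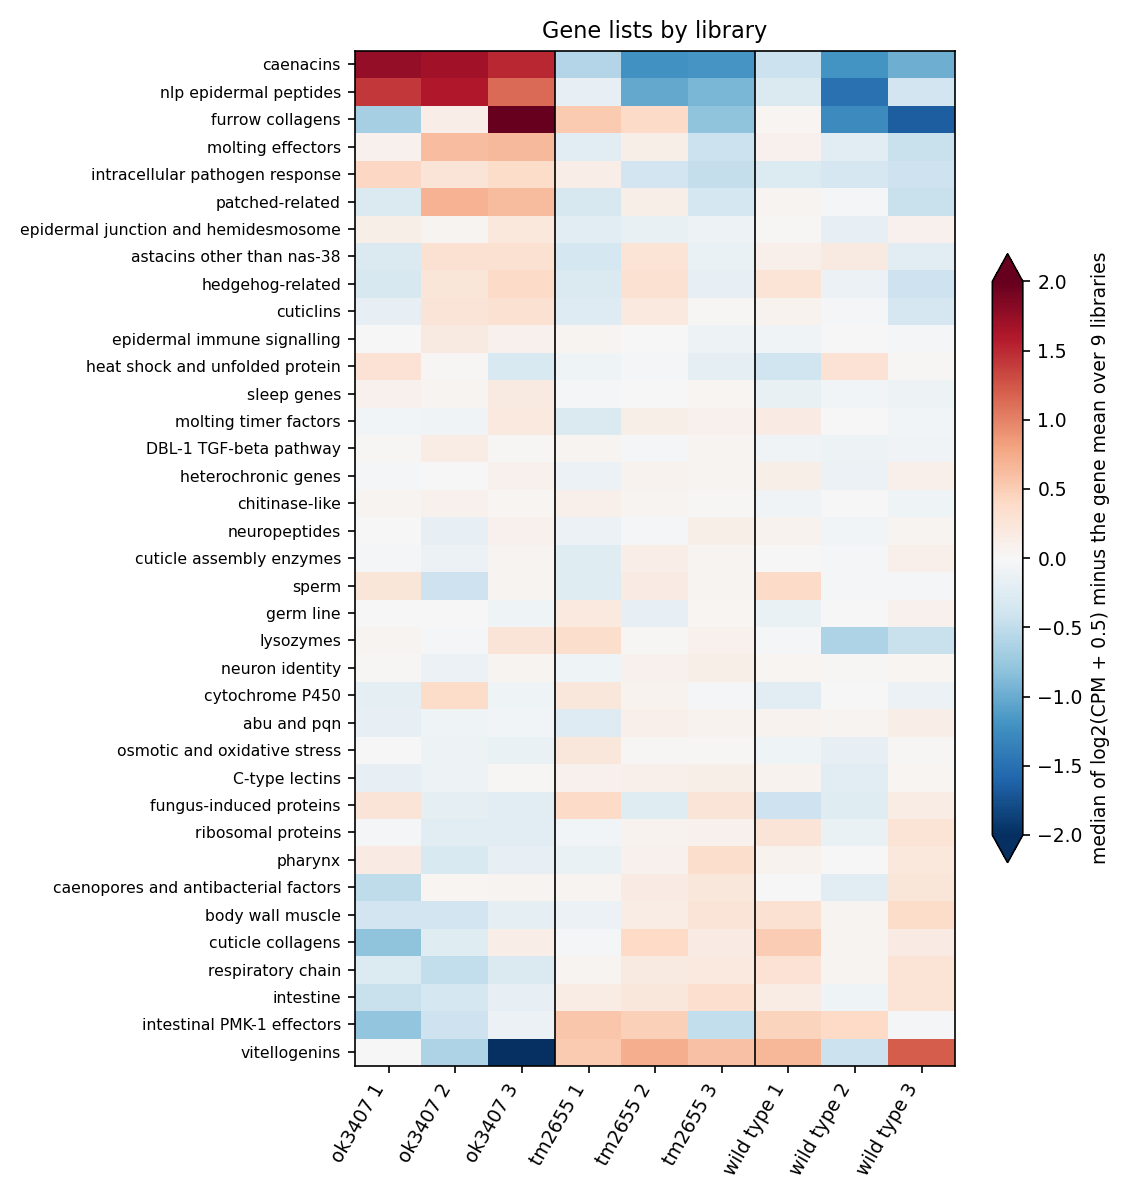
Median over the tested members of each of 37 gene lists of log2(CPM + 0.5) minus the gene's mean over the 9 libraries, for each library (columns: ok3407, tm2655, wild type); the colour scale ends at -2 and 2, which furrow collagens (3.12) and vitellogenins (-2.4) in ok3407 replicate 3 exceed. Caenacins and nlp peptides are high in all 3 ok3407 libraries, and body wall muscle, intestine and respiratory chain genes are low in them.

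The 10 largest rises among called genes with at least 1 CPM on average were R13D11.10, nas-10, nhx-6, cnc-9, C18D11.6, cnc-1, F32G8.3, fip-6, F12A10.9 and ins-20. R13D11.10 had 395 reads in ok3407 and 0 in tm2655, which puts it at least 109-fold higher (adjusted p = 0.022); it overlaps the tested gene R13D11.4, so its reads are uncertain. nhx-6, a sodium-proton exchanger, had 7.66, 11.9 and 0.656 CPM in ok3407 and 1 read in all of tm2655, a ratio of 539 (exact 95% counting interval 96.3 to 21300, adjusted p = 0.0154). C18D11.6 had 362 reads in ok3407 and 2 in tm2655, a ratio of 150 (interval 41.2 to 1240, adjusted p = 0.00682). F32G8.3 had 28.6, 24.7 and 11.6 CPM in ok3407, against 0.455, 0.231 and 0.0684 CPM in tm2655 (6.41 ± 0.60, adjusted p = 0.00111), and F12A10.9 rose by 5.94 ± 0.70 (0.00321). In wild type these 10 genes stood at or below 4.19 CPM in every library. Of the 10 calls, 7 were made again in all 6 fits that left out a library, and R13D11.10, nhx-6 and cnc-1 were lost in at least 1 of the fits without ok3407 replicate 2 or a tm2655 library (adjusted p 0.0514 to 0.124).

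Several of the genes with the smallest p were named after their values were seen, so the separation of their groups follows from this choice. F58G1.7 had 98.1, 65.3 and 55.5 CPM in ok3407, against 3.15, 3.10 and 3.15 CPM in tm2655 (4.54 ± 0.25, adjusted p = 0.000122). oat-1, an organic anion transporter, had 62.9, 66.9 and 58.6 CPM in ok3407, against 7.94, 11 and 7.66 CPM in tm2655 (2.82 ± 0.18, adjusted p = 0.000298). C45B2.3 (5.68 ± 0.39, adjusted p = 0.000391), ora-1 (4.62 ± 0.35, 0.000595), tep-1, a complement-like thioester protein (2.90 ± 0.24, 0.000624), and fmo-3, a flavin monooxygenase (2.36 ± 0.21, 0.000915), rose too. tep-1 was the most abundant of them, with 1130, 973 and 799 CPM in ok3407, against 171, 107 and 110 CPM in tm2655.

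The 10 largest falls were T20D4.3, cal-6, ZK218.7, T20D4.5, D1022.3, nspb-1, Y45G12C.4, col-126, Y50D4B.6 and T10B5.8, with log2 changes of -5.37 to -3.04. The neighbours T20D4.3 and T20D4.5 on chromosome V (3418263 to 3422733 and 3413344 to 3415816) had 0 to 0.384 CPM in ok3407, against 1.13 to 9.23 CPM in tm2655 (adjusted p = 0.00877 and 0.0211). T20D4.10, close by at 3400255 to 3400961 and named after its values were seen, was higher in ok3407, with 26.9, 30.7 and 26.8 CPM in ok3407, against 3.57, 4.65 and 4.79 CPM in tm2655 (2.70 ± 0.21, adjusted p = 0.000391). The others were ZK218.7 (-4.89 ± 1.08, adjusted p = 0.0457), D1022.3 (-4.41 ± 0.83, 0.0202), nspb-1 (-3.79 ± 0.82, 0.0356), Y50D4B.6 (-3.12 ± 0.37, 0.00285) and T10B5.8 (-3.04 ± 0.62, 0.03). Y45G12C.4 (-3.69 ± 0.68, adjusted p = 0.0238) and col-126 (-3.20 ± 0.71, 0.0453) drew 1.86% and 0.255% of their reads from unique positions and are uncertain. T20D4.3, cal-6 and Y50D4B.6 were called again in all 6 fits that left out a library, and the others were lost in at least 1 of them (adjusted p 0.0549 to 0.169, with losses without each of the 6 libraries).

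cal-6 was the clearest case of a difference on the tm2655 side. This calmodulin-related gene (chromosome X, 139221 to 139640) had 0.106, 0.0588 and 0.0678 CPM in ok3407, against 2.55, 3.10 and 3.25 CPM in tm2655, and 0, 0.0296 and 0 CPM in wild type. It was 37-fold lower in ok3407 than in tm2655 (-5.21 ± 0.48, adjusted p = 0.000915), on 8 reads in ok3407 and 262 in tm2655. Relative to wild type, 1001 genes were called in ok3407 (6.23% of those tested) and 1 in tm2655 (0.00623%), which was cal-6, with 397 at an unadjusted p under 0.05. These comparisons share libraries with each other and with ok3407 against tm2655, so their values are given side by side only. The median change of the nlp peptides was 2.05 in ok3407 and -0.11 in tm2655, each relative to wild type. For caenacins these medians were 4.24 and -0.08, for intestinal genes -0.49 and 0.10, and for the respiratory chain -0.55 and -0.04.

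The authors' deposited table of tm2655 against wild type lists 7 genes, and their behaviour between the alleles varied. Besides nas-38 and cal-6, F23D12.11 and T10B5.8 were lower in ok3407 than in tm2655. F23D12.11 had 6.95, 5.20 and 8.68 CPM in ok3407, against 49.6, 35.5 and 33.3 CPM in tm2655, with 14.8, 17.2 and 14.4 CPM in wild type (-2.50 ± 0.23, adjusted p = 0.000915). T10B5.8 had 0.426, 3.62 and 1.15 CPM in ok3407, against 13.3, 11.7 and 18.1 CPM in tm2655, with 4.43, 4.68 and 5.90 CPM in wild type. For both genes wild type lay between the alleles. pud-1.1 (-2.10 ± 0.65, adjusted p = 0.13), F37H8.3 (-0.60 ± 0.84, 0.774) and Y39G8B.7 (-1.32 ± 0.97, 0.538) did not pass. The Y39G8B.7 difference was set by tm2655 replicate 1, at 5.25 CPM with its fellows at 0.692 and 0.65, and it was 0.38 without that library.

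Called genes were spread over all chromosomes, from 2.07% of tested genes on chromosome I and 2.60% on III to 5.07% on V and 6.17% on X. On X, 73 genes rose and 66 fell among 2254 tested. Within 1 Mb of nas-38, 6 of 196 other tested genes were called (3.06%), against 132 of 2057 farther away on X (6.42%). The 6 were cal-6, col-19, ugt-46 (-1.37, adjusted p = 0.00682), ifd-2, sli-1 (1.19, 0.00596) and T04G9.4 (0.89, 0.0391). No test of these shares was made.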

How the data were processed

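Whole L4 larvae in lethargus were sequenced by the submitters as poly(A) RNA with a stranded TruSeq kit (75-cycle paired-end), per the labels' protocols. The deposited counts are raw reads per gene, exon and intron reads together, and the separate exon, junction, intron and uniquely mapped read counts are given per library, per the file headers. RPKM values of the authors are deposited as well. Their tables of each allele against wild type hold the signed fold change, a score of the EDGE test with tagwise dispersions, and its p-value and corrected p-value, per the file headers. The aligner, the genome build and the strand setting of the counting were not given in the sources used here, so coordinates are those of the files without a named build. No per-sample column was left unmapped (0).

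From the counts, edgeR 4.0.16 (R 4.3.3) was fitted to all 9 libraries with TMM factors, filterByExpr and the robust quasi-likelihood test, so that the 3 groups share one estimate of the spread. ok3407 was contrasted with tm2655, p-values were adjusted over all 16055 genes tested by the Benjamini-Hochberg method, and genes under 0.05 were called. The approximate standard error is the absolute log2 change divided by the root of the F statistic. p-values rest on 3 stated biological replicates per group. Intervals are exact binomial or conditional intervals at 95% and cover counting error only, and folds against 0 reads use a floor of 3 reads over the group. On simulated counts the test recovered 28% of 2-fold and 74% of 4-fold changes, and 3.8% of its calls were false. A gene that was not called may therefore still differ by 2-fold. These counts were drawn with the dispersions of the fit itself, so misfit of the model was not checked. Alternatives were DESeq2 1.42.0, limma 3.58.1 on log2(RPKM + 1), other scalings and filters, exon or uniquely mapped reads, the 6 libraries alone, a replicate block and leaving out each library.

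The comparison, members and gene lists were chosen with earlier results of these data known. Genes named by rule were nas-38, the 10 largest called rises and falls averaging 1 CPM or more and without overlap, up to 3 called members of each list per direction by smallest p, and 20 genes of interest whatever their value. Other called list members and the genes said to be named after their values were seen lie outside that rule.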

Additional observations from a re-analysis of the deposited data

How the results depend on the processing

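Genes called higher numbered 374 and genes called lower 271. DESeq2 gave 712 and 759, and all 645 calls were among them. The number called lower was 139 with total library size, 151 with limma on log2 RPKM and 117 with the 6 libraries alone, with 464, 440 and 273 higher, so that 76.9%, 74.5% and 70% of calls were higher in place of 58%. RLE size factors, the 2 other filters, exon reads and uniquely mapped reads gave 340 to 382 higher and 241 to 278 lower. Without 1 library the counts ran from 150 to 359 higher and from 72 to 284 lower. nas-38 stayed between 4.68 and 5.15 and past the threshold in all settings, and its intron share difference between -5.12 and -4.39 points.

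Without 1 library the furrow collagens ran from -0.48 to 2.36 (dpy-7), -0.40 to 2.80 (dpy-2), -0.13 to 2.59 (dpy-3), -0.61 to 1.98 (dpy-8), -0.48 to 2.21 (dpy-9) and -1.25 to 2.22 (dpy-10), negative only without ok3407 replicate 3. lin-42 was 0.17 with total library size, 0.01 with a filter of 5 CPM, 0.08 with limma, 0.25 without ok3407 replicate 1 and 0.36 without tm2655 replicate 2, the highest of a range from -0.29. Without tm2655 replicate 1, nhr-23 was -0.01 and Y39G8B.7 0.38, against at most 0.24 and at least -2.29 without another library. None of these was called, and the cause was not tested. Of the 133 named calls, none changed direction in any setting; 52 were lost with the 6 libraries alone, 25 with limma, 23 with total library size and 29 (ok3407 replicate 3) to 79 (tm2655 replicate 3) without a library.

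Same-numbered libraries of the alleles had correlations of deviations of 0.141, 0.00451 and -0.114. Differently numbered ones ran from -0.261 to 0.332. The labels do not say whether a replicate number marks a shared culture or day, and these few values cannot settle it. A replicate block gave 385 higher and 289 lower, and 20 of the 133 named calls were lost with it. Calls near the threshold and genes with few reads in 1 allele are limited by 3 libraries per group.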

Other observations

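Calls were also counted in 172 name families with at least 8 tested genes, some of which overlap the lists. The 5 families below were picked after their calls were seen. Among them nhx had 50% of its genes called and best 12%, with 4.02% called over all genes tested. Other families above best, not described here, were pho, ncx, acdh, acl, slc, gpx, mig, mltn and ndx. They had shares of 12.5% to 27.3% on 3 calls or fewer. Of 55 tested ttr genes, which encode secreted transthyretin-like proteins, 11 rose and 0 fell in ok3407 relative to tm2655 (median log2 change 0.24; edgeR quasi-likelihood test). ttr-45 had 359, 236 and 205 CPM in ok3407, against 111, 76.8 and 73.4 CPM in tm2655 (1.61 ± 0.24, adjusted p = 0.00682). ttr-38 had 23.9, 25.2 and 11.2 CPM in ok3407, against 3.85, 3.46 and 2.6 CPM in tm2655 (2.60 ± 0.35, adjusted p = 0.00496). In both genes the alleles did not overlap. The number of ttr rises was 10 without tm2655 replicate 1, 9 without ok3407 replicate 1, 11 without ok3407 replicate 3, 6 without ok3407 replicate 2, and 4 without tm2655 replicate 2 or 3.

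Of 8 sodium-proton exchanger (nhx) genes, 4 rose and 0 fell, among them nhx-9, with 57.2, 76.4 and 39.6 CPM in ok3407, against 13.6, 18.9 and 20.5 CPM in tm2655 (1.71 ± 0.26, adjusted p = 0.00886). Without 1 library the nhx rises numbered 1 to 4 (2 without ok3407 replicate 2 or tm2655 replicate 1, 1 without tm2655 replicate 2 or 3). Without ok3407 replicate 1, 3 nhx genes rose and 1 fell. Of 25 bestrophin (best) genes, 3 rose and 0 fell, and best-1 had 18.4, 17.8 and 10.3 CPM in ok3407, against 0.629, 0.659 and 0.821 CPM in tm2655 (4.46 ± 0.46, adjusted p = 0.00154), with 70.2% of its reads unique. The best rises numbered 3 without ok3407 replicate 3, 2 without tm2655 replicate 1 and 1 without any of the 4 other libraries. Of 11 nspb genes, 0 rose and 4 fell, and nspb-6 had 7.66, 7.64 and 8.55 CPM in ok3407, against 30.2, 28.1 and 56.4 CPM in tm2655 (-2.26 ± 0.32, adjusted p = 0.00609). All reads of nspb-6 were unique. The other falls, nspb-1, nspb-3 and nspb-4, had 67.8%, 81% and 81.8% of their reads unique. They rested on 24, 4 and 14 reads in ok3407, against 282, 132 and 136 in tm2655. The nspb falls numbered 4 without tm2655 replicate 1, 3 without ok3407 replicate 2, 2 without ok3407 replicate 1 or tm2655 replicate 2 and 1 without ok3407 replicate 3 or tm2655 replicate 3. Of 12 aldehyde dehydrogenase (alh) genes, 0 rose and 3 fell, by 0.64 to 0.88 on the log2 scale, and 2 were called without tm2655 replicate 2, 0 without ok3407 replicate 2 or tm2655 replicate 3 and 1 without any of the 3 others.

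The lists of detoxification, stress and secreted proteins held 11 calls, to be read beside the 4.02% called over all genes tested. Of 66 tested cytochrome P450 genes, 2 rose and 2 fell (median -0.10, or 0.07 with total library size): cyp-32A1 had 71.4, 97 and 90.6 CPM in ok3407, against 35.8, 25.9 and 34.8 CPM in tm2655 (1.42 ± 0.17, adjusted p = 0.00285), and cyp-13A2 had 3.83, 8.76 and 6.42 CPM in ok3407, against 19.8, 28.5 and 34.4 CPM in tm2655 (-2.12 ± 0.35, 0.0116). Of 26 osmotic and oxidative stress genes, the superoxide dismutases sod-3 (-2.09 ± 0.40, adjusted p = 0.02) and sod-1 (-0.52 ± 0.12, 0.0439) fell and 0 rose (median -0.02, or 0.15 with total library size). Of 24 chitinase-like genes, cht-1 alone rose, with 130, 31.4 and 11.2 CPM in ok3407, against 3.08, 3.59 and 1.3 CPM in tm2655 (4.43 ± 0.89, adjusted p = 0.0328; median -0.06, or 0.11 with total library size). Of 70 abu and pqn genes, 3 rose and 1 fell (median -0.08, or 0.10 with total library size), and without tm2655 replicate 1 the counts were 3 and 9. pqn-92 led the rises, with 66.3, 119 and 85.2 CPM in ok3407, against 30.5, 23.9 and 26.4 CPM in tm2655 (1.74 ± 0.20, adjusted p = 0.00284). Rises and falls without tm2655 replicate 1 were 1 and 3 for cytochrome P450, 0 and 1 for stress genes and 0 and 0 for chitinase-like genes. Of the 11 calls in these 4 lists, cyp-13A2, cyp-32A1, pqn-75 and pqn-92 were made again in all 6 fits that left out a library.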
